A study of Mus musculus with 2 samples.

Results

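The matrix metalloproteinase (Mmp), Adamts and Adamtsl genes of the mouse were examined for H3K27me3, trimethylation of histone H3 at lysine 27, in intact sciatic nerve. The genes were taken by symbol from the RefSeq annotation, which gave 47 genes, 23 Mmp, 19 Adamts and 5 Adamtsl, of 21883 protein-coding genes in all. The chromatin came from male C57/BL6 mice aged 8 weeks, with no genotype or treatment given in the labels, and the series holds 1 H3K27me3 ChIP library and 1 input library of the same tissue. The deposited values are 1 list of 6018 peaks, so there is no replicate and no p-value, and every interval below covers counting error only. The labels give no number of animals and no sorting of the nerve, so a peak may come from Schwann cells, fibroblasts, vessels, immune cells or any other cell of the nerve, and a mark in few cells cannot be told apart from a weak mark in many.

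Matrix metalloproteinases are zinc-dependent enzymes that cut collagens, proteoglycans and other proteins of the extracellular matrix, and several also release signalling proteins from cell surfaces. Adamts enzymes are secreted relatives with thrombospondin repeats, and Adamtsl proteins carry those repeats without a protease domain. After nerve injury such enzymes take part in opening the blood-nerve barrier, in clearing myelin and matrix, and in axon growth. H3K27me3 is laid down by Polycomb repressive complex 2 and is found at genes held silent, often at CG-rich promoters.

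A minority of these genes was marked. Marked here means that at least 1 bp of a peak lay in the annotated span of the gene or in its flanks of 2 kb. This held for 9 of the 47 genes (19.1%, exact Clopper-Pearson 95% interval 9.149 to 33.26), beside a share of 10.5% over all protein-coding genes. Without flanks the count was again 9 (9.77% of all genes), as it was with flanks of 5 kb (11.7%) and where the window had to hold at least 50% of a peak (10.3%). It was 8 where peaks in the window of another protein-coding gene were left out (9.28%). The 9 marked genes were Mmp9, Mmp24 and Mmp25 among the Mmp genes, and Adamts2, Adamts8, Adamts14, Adamts16, Adamts18 and Adamts19 among the Adamts genes. No Adamtsl gene was marked. The share was 13.0% for Mmp genes (3 of 23, interval 2.775 to 33.59), 31.6% for Adamts genes (6 of 19, 12.58 to 56.55) and 0 of 5 for Adamtsl genes (0 to 52.18). By the rule of 3 counts of the total, given below as the 3-count limit, a count of 0 of 5 allows a share of up to 60.0%. Summed over gene spans, peaks covered 0.211% of the bases of the 47 genes, against 0.393% over all protein-coding genes. The families lay on both sides of that value, with 0.752% for Mmp genes, 0.177% for Adamts genes and 0 for Adamtsl genes. The Mmp share rested mostly on 1 gene, with 3043 covered bases in Mmp9, 1295 in Mmp24 and 400 in Mmp25.

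The 9 marked genes carried 14 peaks, most of them at the low end of the list. The score that the authors gave each peak moves in equal steps of 2.5735, and a score divided by this step was read as a number of reads. On that scale the 14 peaks held 225 reads, with a median of 10.5 reads per peak against 14 over the whole list. Of the 14 peaks, 10 held 10 or 11 reads (71.4%, against 36.7% of all peaks), and 10 had the shortest width of the list, 500 bp (71.4%, against 41.6%). The lowest number in the list is 10 reads, for which the exact Poisson interval is 4.795 to 18.39 reads. Weaker enrichment than this is not in the list, so an unmarked gene is a gene with no listed peak and is not shown to lack the mark. The Poisson intervals take no account of this lower limit of 10 reads. Marked members had a median of 15 reads per gene, against 26 over all marked protein-coding genes.

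**Figure D1:**
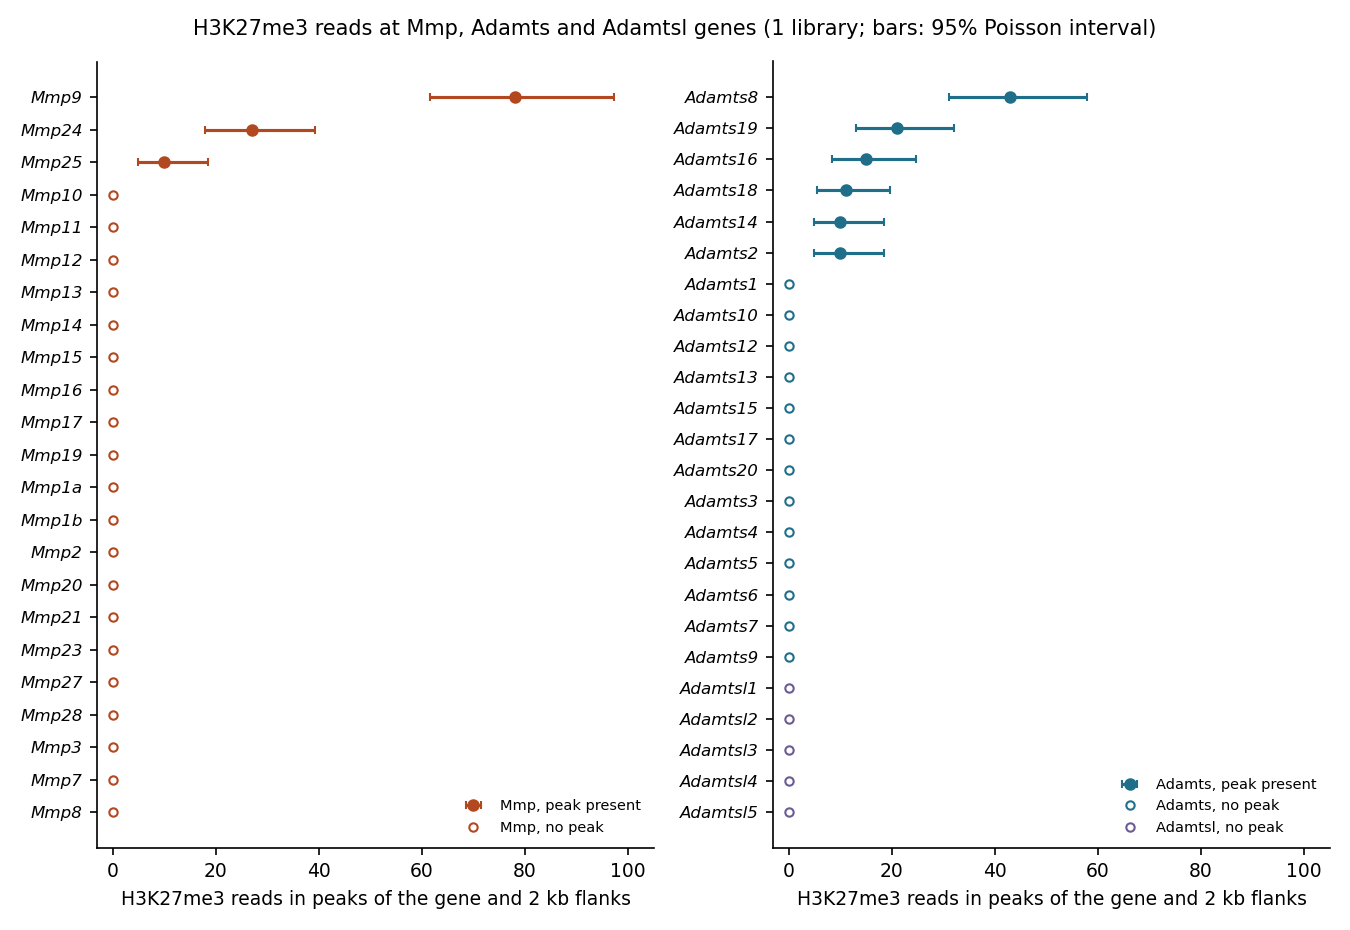
Reads in H3K27me3 peaks of each gene and its 2 kb flanks (x axis) for the 47 genes (rows), with Mmp genes on the left and Adamts and Adamtsl genes on the right. Filled points are genes with a peak, with 95% Poisson intervals, and open points are genes with no peak. Mmp9 with 78 reads and Adamts8 with 43 reads lie above the other 7 marked genes, which have 10 to 27.

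Mmp9 carried the most reads. It encodes gelatinase B, a protease of type IV collagen and gelatin that is induced in nerve after injury. Its main peak spanned 3043 bp inside the gene (chromosome 2, 164948278 to 164951320, mm10) and held 68 reads, with a Poisson interval of 52.8 to 86.21. This peak began 7.95 kb from the lower-coordinate end of the annotated span and stopped 4.53 kb before the higher-coordinate end. The strand of Mmp9 and any starts of transcription inside that span were not known here. Whether the peak lies at a start was therefore not tested. A second peak of 500 bp and 10 reads lay outside the gene, 1.01 kb above its higher-coordinate end and 3.49 kb from the next protein-coding gene, Slc12a5, which encodes a neuronal potassium-chloride transporter. Peaks covered 19.6% of the 15.5 kb gene. With 78 reads in both peaks (61.66 to 97.35), Mmp9 had more reads than 78.6% of all marked protein-coding genes. Its 3043 bp peak alone held 30.2% of the reads in peaks of the 47 genes. Mmp2, which encodes the other gelatinase, had no peak, and the nearest lay 105.4 kb away.

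Of the 6 membrane-type Mmp genes, whose products are anchored at the cell surface, Mmp24 and Mmp25 were marked. Mmp24 encodes MT5-MMP, a protease known mainly from the nervous system. It had 2 neighbouring peaks inside the gene, with 10 reads in 500 bp (chromosome 2, 155786886 to 155787385) and 17 reads in 795 bp (155788240 to 155789034). They lay 11.5 and 12.9 kb downstream of the annotated 5′ end, and none lay within 2 kb of either end. Mmp25 encodes MT6-MMP, also called leukolysin, a protease of leukocytes. Its single peak of 500 bp and 10 reads lay across the 5′ end (chromosome 17, 23644870 to 23645369). The same peak overlapped the neighbouring protein-coding gene Bicdl2, so its reads cannot be given to Mmp25 alone. Mmp14, which encodes the collagenolytic MT1-MMP, had its nearest peak 13.8 kb away. Mmp15, Mmp16 and Mmp17 had theirs 250.1, 1971.4 and 837.3 kb away.

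Adamts8 carried the most reads of the Adamts genes and was the only proteoglycan-cleaving member of 7 with a peak. It had 3 peaks at its lower-coordinate end on chromosome 9. The strongest, 755 bp with 22 reads (30942572 to 30943326), began 0.01 kb inside the gene, and those beside it held 11 reads 1.02 kb outside the gene and 10 reads 1.73 kb inside it. In all, Adamts8 had 43 reads (31.12 to 57.92), more than 64.5% of marked protein-coding genes, and 5.9% of the gene was covered. Its neighbour Adamts15, also a proteoglycanase, had no peak, although the nearest, the 11-read peak of Adamts8, was 18.6 kb away. Adamts1, Adamts4, Adamts5, Adamts9 and Adamts20 were the other unmarked genes of this group. Adamts5 encodes the main aggrecan-cleaving enzyme of mouse cartilage, and it lies beside Adamts1 on chromosome 16 in an interval of 3085.3 kb between listed peaks.

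The procollagen N-proteinases, which trim the amino end of fibrillar procollagens, were marked at Adamts2 and Adamts14 but not at Adamts3. Adamts2, whose loss in humans gives a form of Ehlers-Danlos syndrome with fragile skin, had 10 reads in a 500 bp peak that began 1.24 kb downstream of its 5′ end (chromosome 11, 50603326 to 50603825). Adamts14 had 10 reads in a 500 bp peak inside the gene, 13.9 kb from the 5′ end (chromosome 10, 61259019 to 61259518). Both values are at the lowest number of reads in the list, and the nearest peak to Adamts3 was 488.5 kb away.

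Of the 6 remaining Adamts genes, Adamts16, Adamts18 and Adamts19 were marked. Adamts16 had 15 reads (8.395 to 24.74) in a 710 bp peak across its higher-coordinate end (chromosome 13, 70841307 to 70842016), which also overlapped the non-coding gene Gm36529. Adamts19, whose human counterpart is mutated in heart valve disease, had 2 peaks of 500 bp with 11 and 10 reads at its lower-coordinate end on chromosome 18, the first across the end and the second 1.57 kb inside. Adamts18 had 11 reads in a 500 bp peak 26.7 kb from its 5′ end (chromosome 8, 113822140 to 113822639). Adamts6, Adamts10 and Adamts17 were unmarked, with the nearest peaks 639.4, 700.2 and 770.7 kb away. Unmarked too were Adamts7 and Adamts12, which cleave cartilage oligomeric matrix protein, and Adamts13, the protease of von Willebrand factor. The nearest peak lay 28.4 kb from Adamts12, 15.1 kb from Adamts13 and 249.4 kb from Adamts7.

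**Figure D2:**
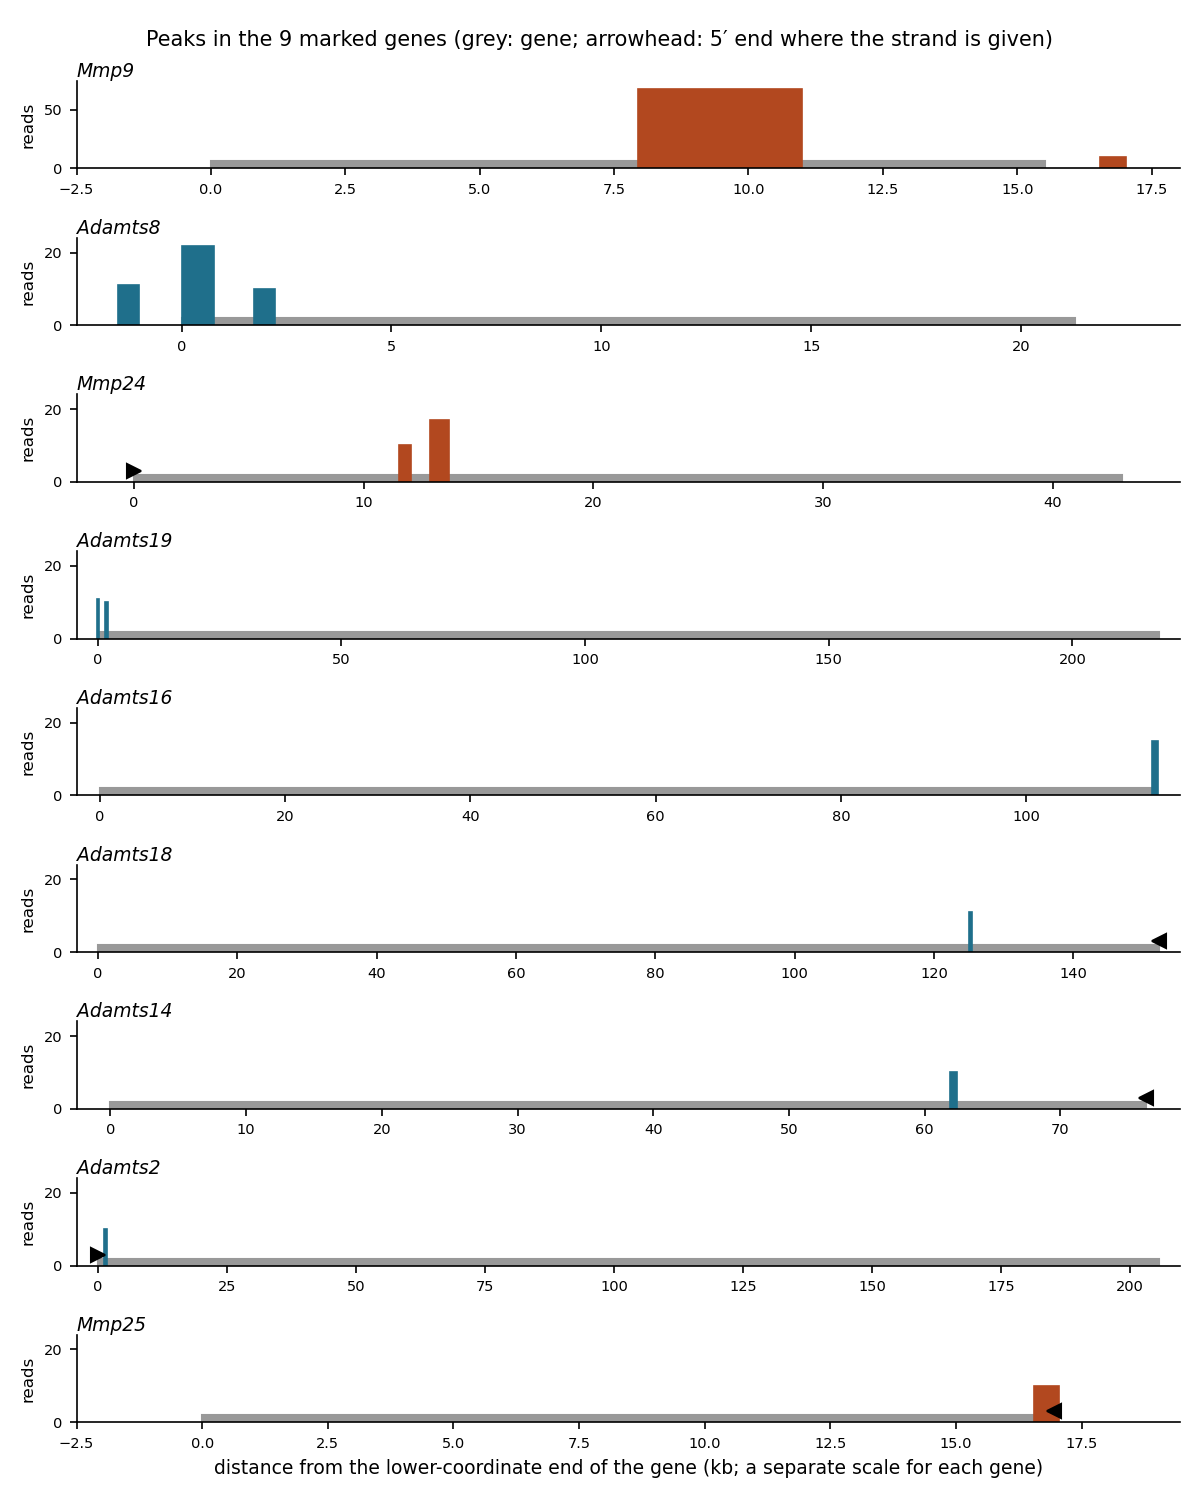
Position of the 14 peaks in the 9 marked genes, in order of reads. The x axis is the distance in kb from the lower-coordinate end of each gene on its own scale, bars give the reads of each peak (y axis) at its true width, the grey strip is the gene, and an arrowhead shows the 5′ end of the 5 genes with a known strand. The peaks of Adamts8, Adamts19, Adamts16, Adamts2 and Mmp25 lie at an annotated gene end. Those of Mmp24, Adamts18, Adamts14 and the 68-read peak of Mmp9 lie inside the annotated span, where other starts were not known.

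The position of the peaks differed between members. Of the 14 peaks, 9 lay within 2 kb of an annotated gene end and 5 lay further inside the annotated span. Starts of transcription inside the spans were not known here. With the ends alone, 6 genes were marked (12.8%), against 8.59% of all protein-coding genes, because Mmp24, Adamts14 and Adamts18 no longer counted. The 5′ end could be told for the 32 members for which the RefSeq promoter table gives a strand. Of these, Adamts2 and Mmp25 had a peak within 2 kb of it (6.25%, against 6.99% of the 17491 protein-coding genes in that table).

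Adamts genes are long, and over all protein-coding genes the share marked was higher in longer genes. The median length of Adamts genes was 114.0 kb, against 12.7 kb for Mmp genes and 17.2 kb for all protein-coding genes. Among genes of 150 kb or more, 3 of 12 members were marked (25%), against 27% of all such genes. The marked ones were Adamts2, Adamts18 and Adamts19, and the 12 also include the unmarked Mmp16, Adamtsl1 and Adamtsl3, which are not Adamts genes. Of the 2 members of 50 to 150 kb, Adamts14 and Adamts16, both were marked, against 13.3%. Among genes of 10 to 50 kb, 4 of 25 members were marked (16.0%, 4.538 to 36.08), against 8.74%. The 8 members under 10 kb were unmarked (0 to 36.94, 3-count limit 37.5%), against 8.3%. The exact interval of the members held the share of all genes in each class except that of 50 to 150 kb, where it rests on 2 genes (15.81 to 100%).

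Counts fell towards or below those of all genes when weak peaks were left out. With the median score, 36.0, as the lower limit, marked members were Mmp9, Mmp24, Adamts8 and Adamts16 (4 of 47, 8.51%, against 7.08%). The same 4 genes were left with peaks wider than 500 bp, a setting chosen after seeing the data (8.51%, against 7.84%). With peaks of at least 20 reads, Mmp9 and Adamts8 were left (4.26%, against 5.46%). The share for Adamts genes was 10.5% at the median score and 5.26% at 20 reads. Every marked Adamts gene other than Adamts8 rested on peaks of 10 to 15 reads.

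**Figure D3:**
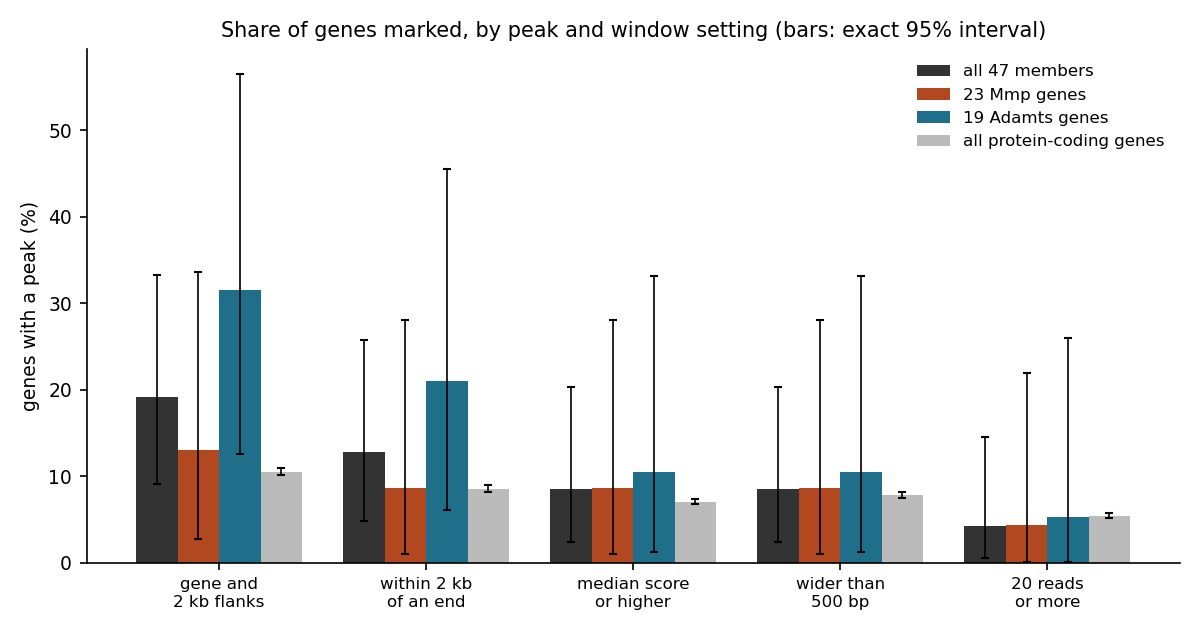
Percent of genes with a peak (y axis) under 5 settings of the peaks and windows (x axis), for all 47 members, 23 Mmp genes, 19 Adamts genes and all protein-coding genes. Bars carry exact 95% intervals. The members stand at 19.1% with every peak, beside 10.5% for all genes, and at 4.26% with peaks of at least 20 reads, beside 5.46%.

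The largest group of unmarked members was the Mmp cluster of chromosome 9. The 10 genes Mmp13, Mmp12, Mmp1b, Mmp3, Mmp1a, Mmp10, Mmp8, Mmp27, Mmp20 and Mmp7 lie there within 427.1 kb (7272514 to 7699585). They encode the collagenases Mmp1a, Mmp1b, Mmp8 and Mmp13, the stromelysins Mmp3 and Mmp10, the matrilysin Mmp7, the macrophage metalloelastase Mmp12, the enamel protease Mmp20, and Mmp27. All 10 were unmarked (0 to 30.85%, 3-count limit 30.0%), and no peak lay anywhere in the cluster. That interval held the share of all protein-coding genes, 10.5%. The nearest peaks were 4234.9 kb below it and 1201.6 kb above it, so the cluster sat in an interval of 5863.6 kb with no listed peak. Since these genes are neighbours, they are not independent observations. Of the 13 Mmp genes elsewhere, 3 were marked (23.1%, 5.038 to 53.81), an interval that also held 10.5%. Those without a peak were, beside Mmp2 and 4 membrane-type genes, Mmp11, Mmp19, Mmp21, Mmp23 and Mmp28, the last with its nearest peak 13.1 kb away. Over all members the median distance to the nearest peak was 307.6 kb, against 205.4 kb for all protein-coding genes. It was 1201.6 kb for Mmp genes, 89.6 kb for Adamts genes and 93.9 kb for Adamtsl genes. Adamtsl5 had a peak 7.71 kb away, the shortest distance of any unmarked member, while Adamtsl2, Adamtsl4, Adamtsl1 and Adamtsl3 had theirs 31.2, 93.9, 307.6 and 338.2 kb away.

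The promoters of the cluster held fewer CG than those of the 5 marked members in the promoter table, with no overlap. The marked Mmp9, Adamts8, Adamts16 and Adamts19 have no promoter in that table. CG dinucleotides, the substrate of DNA methylation and a feature of many promoters that bind Polycomb, were counted in the 300 bases from 250 before to 50 after the annotated start (RefSeq, GRCm38.p6, the build of mm10). The 10 promoters of the cluster held 0 to 4 CG, with a median of 1. The 5 marked members with a promoter in the table held 18 (Mmp25), 22 (Adamts18), 41 (Adamts2), 44 (Adamts14) and 44 (Mmp24). Of these, only Adamts2 and Mmp25 had a peak within 2 kb of the 5′ end. The peaks of Mmp24, Adamts14 and Adamts18 lay 11.5 kb or more from it, away from the bases counted. The median was 13 over all 17491 protein-coding promoters, 18 in those with a peak within 2 kb of the 5′ end and 13 in those without. Over all genes, such a peak was found at 1.1% of promoters with 0 to 2 CG, 4.07% of those with 3 to 5, 9.06% with 6 to 10, 10.2% with 11 to 20 and 8.7% with 21 or more. Of the 11 members with 21 or more CG, 1 had such a peak. The 8 Mmp promoters outside the cluster, marked or not, had a median of 19 CG. The 27 unmarked members of the promoter table include the 10 of the cluster, whose 0 to 4 CG lower the median of the 27. The median was 41 CG (quartiles 22 to 44) in the 5 marked members and 8 (1.5 to 21) in the 27 unmarked ones. The ranges overlapped, since the unmarked Adamtsl3 held 46 and Adamts3 held 41. Adamts20, also unmarked, held 41 too, in a window set on a start that lies 27724 bases from the 5′ end of the gene span. The promoters of Adamts2 and Mmp25, the 2 members with a peak at the 5′ end, are given 5′ to 3′ with each CG in capitals. Beside them stand the unmarked Mmp12 and Adamts13, which have the fewest CG in their families among genes of the table (Mmp12 shares its 0 with 3 other genes).
Adamts2, chr11:50601835-50602134, + strand: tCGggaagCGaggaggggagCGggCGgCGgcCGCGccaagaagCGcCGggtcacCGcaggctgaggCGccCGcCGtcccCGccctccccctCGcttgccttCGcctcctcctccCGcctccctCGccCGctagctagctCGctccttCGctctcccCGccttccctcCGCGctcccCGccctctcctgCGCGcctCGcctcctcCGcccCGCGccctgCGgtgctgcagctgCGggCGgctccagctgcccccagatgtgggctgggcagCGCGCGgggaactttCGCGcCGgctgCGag
Mmp25, chr17:23645220-23645519, - strand: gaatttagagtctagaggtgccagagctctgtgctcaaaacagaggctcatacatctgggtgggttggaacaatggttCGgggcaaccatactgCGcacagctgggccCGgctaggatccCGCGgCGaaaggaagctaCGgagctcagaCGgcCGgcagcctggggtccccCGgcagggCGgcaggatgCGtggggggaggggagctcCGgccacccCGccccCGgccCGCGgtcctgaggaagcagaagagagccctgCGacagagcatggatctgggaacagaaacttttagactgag
Mmp12, chr9:7344147-7344446, + strand: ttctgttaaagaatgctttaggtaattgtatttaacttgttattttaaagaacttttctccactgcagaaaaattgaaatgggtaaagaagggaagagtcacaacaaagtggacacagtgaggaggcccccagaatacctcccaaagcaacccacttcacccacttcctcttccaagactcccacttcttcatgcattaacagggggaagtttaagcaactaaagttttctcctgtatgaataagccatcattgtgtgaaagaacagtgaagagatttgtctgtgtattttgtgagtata
Adamts13, chr2:26973166-26973465, + strand: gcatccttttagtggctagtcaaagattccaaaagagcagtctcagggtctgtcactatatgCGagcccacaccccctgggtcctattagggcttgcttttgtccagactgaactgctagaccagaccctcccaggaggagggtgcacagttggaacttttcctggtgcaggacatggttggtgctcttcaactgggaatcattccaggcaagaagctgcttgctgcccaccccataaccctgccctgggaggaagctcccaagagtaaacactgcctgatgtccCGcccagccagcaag
The peak of Mmp25 covered 150 of the 300 bases shown, and the peak of Adamts2 lay downstream of those shown. The sequences held 41 CG for Adamts2, 18 for Mmp25, 0 for Mmp12 and 2 for Adamts13, with GC contents of 77.3%, 63.3%, 38.7% and 54.7%.

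**Figure D4:**
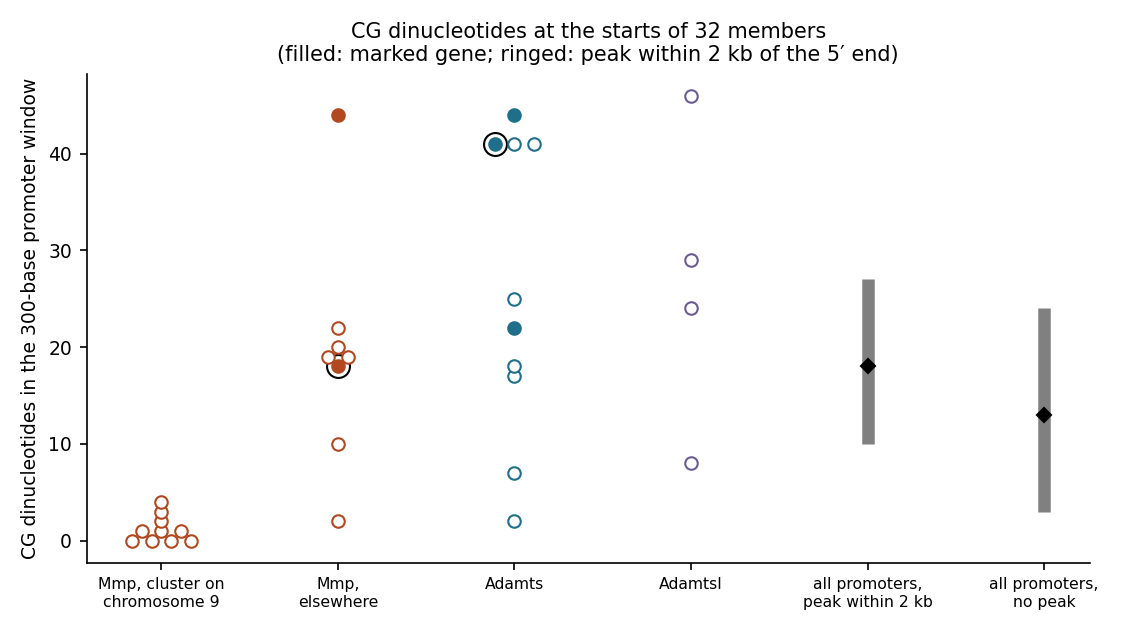
CG dinucleotides in the 300-base promoter window (y axis) of the 32 members in the promoter table, by group (x axis). Filled points are marked genes, rings show a peak within 2 kb of the 5′ end, and the grey bars with diamonds give the quartiles and median of all protein-coding promoters with and without such a peak. The 10 genes of the chromosome 9 cluster have 0 to 4 CG, and the 5 marked genes have 18 to 44.

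The unmarked cluster is known for its response to AP-1, the transcription factor of Jun and Fos proteins, and its promoters held the corresponding motif. The letters TGANTCA, which read the same on both strands, were found in 7 of the 10 cluster promoters (70.0%), in none of the other 22 member promoters and in 7.03% of all protein-coding promoters. The motif began 35 to 95 bases before the annotated start, with a median of 63. The letters TATAAA or their reverse complement were found in 8 of the 10 (80.0%), in 3 of the other 22 member promoters (Mmp21, Adamts1 and Adamtsl2) and in 13.3% of all promoters, and no match of one motif overlapped one of the other. The 7 AP-1 matches are shown 5′ to 3′ with 12 bases on each side, with the match in capitals, to let their shared core be read.
Mmp13, chr9:7272467-7272497, + strand: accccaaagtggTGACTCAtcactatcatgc
Mmp1b, chr9:7388101-7388131, - strand: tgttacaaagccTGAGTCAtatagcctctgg
Mmp3, chr9:7445764-7445794, + strand: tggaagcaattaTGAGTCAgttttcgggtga
Mmp1a, chr9:7464056-7464086, + strand: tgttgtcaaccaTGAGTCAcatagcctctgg
Mmp10, chr9:7502267-7502297, + strand: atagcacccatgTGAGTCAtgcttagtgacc
Mmp20, chr9:7628124-7628154, + strand: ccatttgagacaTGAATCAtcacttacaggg
Mmp7, chr9:7692015-7692045, + strand: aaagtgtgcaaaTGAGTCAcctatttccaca
The core was TGAGTCA in 5 genes and TGACTCA, the reverse complement of TGAGTCA and so the same site, in Mmp13. That of Mmp20, TGAATCA, was different. Of the 9 marked members, 5 have a promoter in the table, and none of these 5 held either motif. Mmp9, Adamts8, Adamts16 and Adamts19 are marked but not in that table, so their promoters were not read. These matches describe the sequence, and binding of any factor was not measured here.

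Other genes of the pathway were read in 4 short lists, chosen with earlier results of these data known. The 6 inhibitor genes were unmarked (0 to 45.93%, 3-count limit 50.0%), beside 10.5% of all protein-coding genes. These were Timp1 to Timp4, which encode the tissue inhibitors of metalloproteinases, Reck, a membrane-anchored inhibitor, and A2m, the protease trap alpha-2-macroglobulin. None of 7 genes of the plasminogen activator system was marked (0 to 40.96%, 3-count limit 42.9%). The intervals of both lists held 10.5%. Of 13 genes of other metalloproteinases, Adam33 was marked (7.69%, 0.1946 to 36.03, again beside 10.5%), with 23 reads in 1 peak of 1139 bp. Of 10 genes for substrates other than collagens, which are counted apart, 6 were marked (60.0%, 26.24 to 87.84), beside 10.5% of all genes. Bcan and Ncan, which encode the brain proteoglycans brevican and neurocan, had 100 and 95 reads. Acan, which encodes the cartilage proteoglycan aggrecan, had 53 reads, and Comp, which encodes cartilage oligomeric matrix protein, had 47. Vwf had 11 and Fbn2 had 10. The unmarked substrates were Vcan, Fn1, Eln and Fbn1. Bcan, Ncan, Acan and Comp each had more reads than any Adamts gene, whose highest value was 43. Mmp9, with 78 reads, had more than Acan and Comp and fewer than Bcan and Ncan.

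The share of marked members was close to that of collagen chains. Of 44 collagen chain genes, 8 were marked (18.2%, 8.192 to 32.71), led by Col13a1 with 110 reads, Col2a1 with 28 and Col27a1 with 15. Of 41 integrin and laminin genes, 5 were marked (12.2%, 4.081 to 26.2), led by Itga11 with 32 reads, Itgad with 12 and Itga9 with 11. The interval of the members overlapped those of both families, and with 1 library the differences were not tested.

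**Figure D5:**
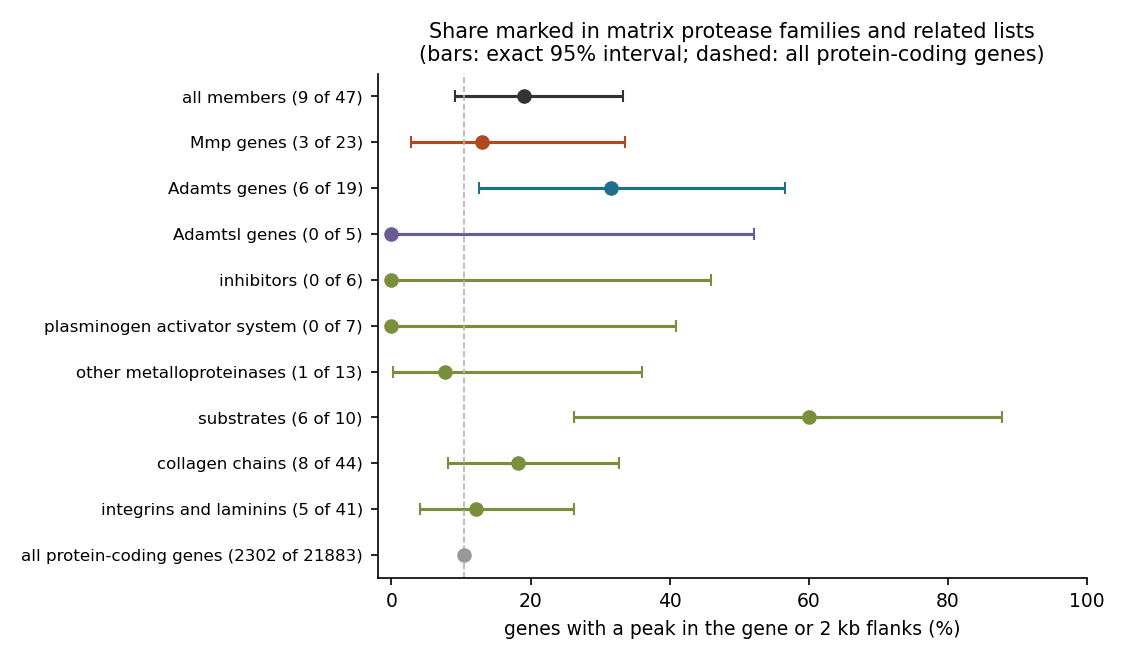
Percent of genes with a peak in the gene or its 2 kb flanks (x axis) for the members, their families, related lists and all protein-coding genes (rows, with the counts). Points carry exact 95% intervals, and the dashed line marks all protein-coding genes at 10.5%. Substrates stand at 60.0% and Adamts genes at 31.6%. Inhibitors and the plasminogen activator system stand at 0, with intervals that hold 10.5%.

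The peak list was also read against marker genes of the cells that a nerve holds. The Schwann cell markers Mbp and Sox10 had 1 peak each, of 11 reads. Of the 14 peaks of the matrix protease genes, 10 held 10 or 11 reads. Of 5 fibroblast and perineurial markers, Pdgfra was marked (68 reads), and of 3 skeletal muscle markers Acta1 was (79 reads). None of 3 endothelial or 3 macrophage markers was, beside 10.5% of all protein-coding genes. The cell type that carries the peaks of Mmp9 or Adamts8 was not tested.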

How the data were processed

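H3K27me3 ChIP-seq of sciatic nerve was deposited as 1 peak list. The submitters' processing notes name Bowtie and mm10. Its version, the peak caller, the threshold and the part the input played are not stated in these sources. The deposited score per peak was divided by 2.5735, the step found from the scores. Whole multiples of the step matched 99.83% of scores to within 0.05, and the nearest whole number was read as reads. In all, 185225 reads lay in peaks, and total depth is unknown.

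Gene spans came from RefSeq (GRCm38.p6), and strands and promoters from its promoter table, which held 32 of the 47 members. Protein sequences were not used here. Overlaps were counted in Python 3.11.15 with pandas 2.3.3 and numpy 2.4.6, tested on simulated peaks, and intervals came from scipy 1.17.1. Figures were drawn with matplotlib 3.10.9.

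The members, lists and settings were chosen with earlier results of these data known. The text names every member, every marked gene of the short related lists, and the 3 collagen chain and the 3 integrin or laminin genes with the most reads. One Schwann cell marker result is not reported here. Promoters shown are those with a peak at the 5′ end and the unmarked ones with the fewest CG. The AP-1 windows were chosen after their values were seen. Alternatives varied the window, the overlap, the lowest score and the background, and peaks wider than 500 bp were added later.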

Additional observations from a re-analysis of the deposited data

How the results depend on the processing

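With no flanks, with 5 kb flanks and with at least 50% of a peak inside the window, the same 9 genes were marked. With peaks of no other protein-coding gene 8 were, since Mmp25 no longer counted, and with gene ends 6 were. At the 5′ end, in the 32 members with a strand, 2 were marked (1 Mmp, 1 Adamts). With peaks at or above the median score 4 members were marked, 2 of them Adamts genes, and with peaks wider than 500 bp, added after seeing the data, also 4 and 2. With peaks of at least 20 reads 2 were (1 Mmp, 1 Adamts). The construction of these settings, which keep fewer peaks or genes, lowers the counts. Adamtsl genes stayed at 0 in every setting. The share of all protein-coding genes was 10.5%, and 11.2% without olfactory and vomeronasal receptor genes. By gene length it was 8.3% under 10 kb, 8.74% at 10 to 50 kb, 13.3% at 50 to 150 kb and 27% at 150 kb or more. No paired analysis was possible because the series has 1 ChIP library and no replicates. Enrichment below 10 reads is not listed, and the part of depth in the counts was not tested.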
